A study of Mus musculus with 8 samples.

Results

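The genes described here encode the matrix metalloproteinases (MMPs), the tissue inhibitors of metalloproteinases (TIMPs) and the ADAMTS proteases. They were chosen by gene name in the array files (Mmp, Timp1 to Timp4 or Adamts followed by a number), which gave 42 of the 28786 gene names on the array, carried by 73 of 41174 probes. Of these, 21 were MMP genes with 28 probes, 4 were TIMP genes with 6 probes and 17 were ADAMTS genes with 39 probes. RNA came from primary vascular smooth muscle cells grown from the aorta of C57BL/6 mice, in 2 groups of 4 cultures described as independent. Both groups were kept in medium with 20% serum and received 1 µM angiotensin II (AngII), a peptide hormone that contracts arteries. The AngII+CsA group also received 200 ng/ml cyclosporin A, a drug that inhibits the calcium-dependent phosphatase calcineurin and thereby the NFAT transcription factors. The length of treatment and the age and sex of the mice are not given in the sources used here, and untreated cells were not analysed here, so no value below is a response to angiotensin.

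MMPs are zinc-dependent enzymes that cut collagens, elastin and other proteins of the extracellular matrix, and most are secreted as inactive precursors. TIMPs bind the active enzymes and block them. ADAMTS proteases are secreted relatives with thrombospondin repeats, and the best known of them cleave the proteoglycans versican and aggrecan or trim procollagens. In the aorta these genes are studied for their part in wall remodelling and aneurysm.

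A level is given as the log2 processed signal of a probe after subtracting the 75th percentile of its array, so that 0 is a spot as bright as that percentile, and levels of different genes are not compared because they come from different probes. Between 42.8% and 51.7% of the spots on an array were well above background, and the lowest such signals lay between -3.87 and -3.01. Of 8 smooth muscle markers, 7 were above background on at least 4 arrays, Myocd on 1. Markers of other cell types were seen in part. Of 6 endothelial markers, Tek was above background on 8 arrays, Vwf on 7, Kdr on 2, and Pecam1, Cdh5 and Tie1 on 0. Of 6 macrophage markers, Cd68, Csf1r and Cd14 were above background on 8 arrays, Ptprc on 1, and Adgre1 and Itgam on 0. Of 6 fibroblast markers, Pdgfra, Pi16 and Lum were above background on 8 arrays, Dpt and Ly6a on 2, and Cd34 on 0. Of 3 T cell markers, Cd3e was above background on 8 arrays, Cd3g on 2 and Cd3d on 1. Of 5 neutrophil markers, 0 were above background on at least 4 arrays. The labels number the cultures 1 to 4 in both groups, and the 2 arrays of a number shared a slide. Once group means were removed, arrays of the same number resembled each other more than arrays of different numbers, so differences between the groups were taken within each number.

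Many MMP genes lie side by side on mouse chromosome 9, and their promoters are a textbook site of AP-1, the dimer of Fos and Jun proteins, while NFAT proteins bind a shorter core motif. The promoters of Mmp3, Mmp10 and Mmp13 are shown because these neighbours differed in detection, as described further on. Mmp3 was above background on 2 arrays, Mmp10 on 7 and Mmp13 on 0. That of Adamts1 is shown because Adamts1 had the smallest p of the tested members for cyclosporin A. The sequences are from RefSeq, assembly GRCm38.p6, 250 bases before to 50 bases after the annotated start, on the strand of the gene. Capitals mark the AP-1 motif in the MMP promoters and the NFAT core in that of Adamts1.
Mmp3, chr9:7445572-7445871, plus strand: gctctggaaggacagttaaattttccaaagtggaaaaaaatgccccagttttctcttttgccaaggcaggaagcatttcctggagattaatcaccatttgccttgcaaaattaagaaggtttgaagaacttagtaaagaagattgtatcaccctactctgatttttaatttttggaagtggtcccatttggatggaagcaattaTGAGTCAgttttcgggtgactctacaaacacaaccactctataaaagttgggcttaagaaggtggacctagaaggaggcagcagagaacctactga
Mmp10, chr9:7502092-7502391, plus strand: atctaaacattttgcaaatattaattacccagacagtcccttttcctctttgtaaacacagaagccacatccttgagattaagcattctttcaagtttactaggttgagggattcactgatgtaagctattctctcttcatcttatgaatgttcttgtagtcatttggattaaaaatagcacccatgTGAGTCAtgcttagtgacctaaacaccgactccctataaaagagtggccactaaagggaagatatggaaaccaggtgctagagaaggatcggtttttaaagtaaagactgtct
Mmp13, chr9:7272264-7272563, plus strand: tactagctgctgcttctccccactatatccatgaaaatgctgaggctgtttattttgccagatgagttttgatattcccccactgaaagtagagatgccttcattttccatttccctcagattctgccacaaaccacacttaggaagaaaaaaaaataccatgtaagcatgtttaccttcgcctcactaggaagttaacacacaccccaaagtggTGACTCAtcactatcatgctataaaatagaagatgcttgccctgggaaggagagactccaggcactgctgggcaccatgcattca
Adamts1, chr16:85803064-85803363, minus strand: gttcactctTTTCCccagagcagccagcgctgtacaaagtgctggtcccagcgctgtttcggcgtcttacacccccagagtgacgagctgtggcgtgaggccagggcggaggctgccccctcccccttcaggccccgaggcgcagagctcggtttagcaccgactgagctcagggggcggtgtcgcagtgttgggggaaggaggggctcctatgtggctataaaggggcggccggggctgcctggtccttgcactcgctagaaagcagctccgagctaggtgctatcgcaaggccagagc

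In these promoters the AP-1 motif was TGAGTCA from base -46 in Mmp3, TGAGTCA from base -63 in Mmp10 and TGACTCA from base -35 in Mmp13, counted from the start. The Adamts1 promoter held no AP-1 motif and 1 NFAT core, read as TTTCC from base -241. The NFAT core was not particular to it: the promoters of Mmp3, Mmp10 and Mmp13 held 3, 2 and 2, which are not in capitals. The table held 31 promoters of 28 members. Searched on both strands, the AP-1 motif TGANTCA was in 7 of them (22.6%), against 7.81% of all 32851 promoters of this length. All 7 belonged to genes of the chromosome 9 cluster, Mmp1a, Mmp3, Mmp7, Mmp10, Mmp12, Mmp13 and Mmp20, and these are related genes, so they are not independent examples. The NFAT core GGAAA, on both strands, was in 13 of the 31 (41.9%) and in 61.3% of all promoters. Of the 17 promoters of genes bright enough to be tested, 1 held the AP-1 motif (Mmp10) and 7 held the NFAT core. These matches describe the letters of a short window and were not tested as binding sites.

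The 3 families differed in how many members were measurable. Of all 42 genes, 20 had a probe above background on 8 of 8 arrays, 4 on 4 to 7, 8 on 1 to 3 and 10 on 0. By probe, 35 of 73 (47.9%) were above background on at least 4 arrays, against 47.4% of all probes on the array. This share was 6 of 6 for the TIMPs, 19 of 39 (48.7%) for ADAMTS and 10 of 28 (35.7%) for the MMPs. Genes with such a probe were tested, which left 24 members: 8 MMPs, 4 TIMPs and 12 ADAMTS genes. A probe below background gives only an upper limit on the signal and does not show that the transcript is absent.

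By role, detection ran as follows. Of the collagenases, which open the fibrillar collagen triple helix, Mmp8 and Mmp13 were above background on 0 arrays and Mmp1a on 1. The gelatinases take over once collagen is unwound. Both Mmp9 probes were above background on 0 arrays, and the single Mmp2 probe, at chromosome 8 from 91446191 to 91446250 in mm7, was above background on 1, the AngII+CsA array of replicate 1 (level -2.14). The other Mmp2 levels were -3.29 on the AngII array of replicate 1 and -5.91 to -4.94 on the remaining 6. Of the stromelysins, matrilysin and metalloelastase (Mmp3, Mmp7, Mmp10, Mmp11 and Mmp12), Mmp10 was tested, Mmp3 and Mmp11 were above background on 2 arrays each, Mmp7 on 1 and Mmp12 on 0. The membrane-type MMPs act at the cell surface, and 4 of these 6 were tested, Mmp14, Mmp16, Mmp17 and Mmp24, while Mmp15 and Mmp25 were above background on 0 arrays. Of the 5 remaining MMPs, Mmp21, Mmp23 and Mmp28 were tested, and Mmp19 and Mmp20 were above background on 1 array each. All 7 ADAMTS genes known for cleaving proteoglycans, Adamts1, Adamts4, Adamts5, Adamts8, Adamts9, Adamts15 and Adamts20, were tested. Of the procollagen and cartilage-matrix group Adamts2, Adamts7 and Adamts12 were tested and Adamts3 was above background on 0 arrays. The other tested ones were Adamts10 and Adamts18, whereas Adamts6, Adamts13 and Adamts19 were above background on 0 arrays and no single Adamts16 probe on more than 2.

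Few genes of the chromosome 9 cluster were measurable. Its 8 genes have 9 probes between 7280046 and 7695493 in mm7, a stretch of 415 kb. Only Mmp10 of these 8 was tested, 4 were above background on 1 to 3 arrays and 3 on 0. No gene annotation of mm7 was used here, so the place of each probe within its transcript (coding or UTR) is not given.

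**Figure D1:**
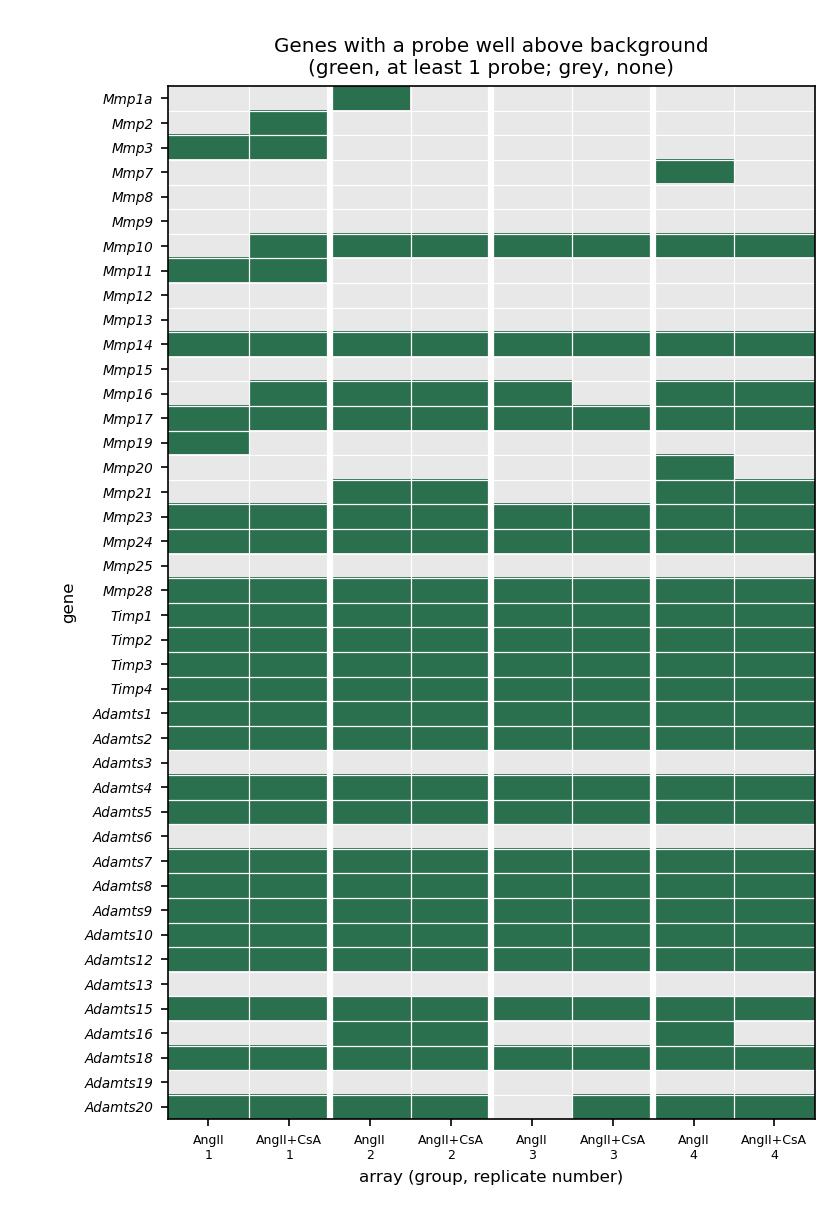
Each row is 1 of the 42 genes and each column 1 of the 8 arrays, ordered by replicate number; green marks a gene with at least 1 probe well above background on that array and grey a gene with none. All 4 TIMP rows are green throughout, 10 rows are grey throughout, and Mmp3 and Mmp11 are green on both arrays of replicate 1 and grey on the other 6.

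Cyclosporin A was not seen to change any tested member. In limma with replicate number as a block and Benjamini-Hochberg adjustment over 14881 genes, 0 of the 24 members passed the threshold of 0.05, where 0.0269% of all genes did (4 genes, all lower), and the smallest adjusted p of a member was 0.894. At an unadjusted p under 0.05 there were 3 members, Adamts1 and Adamts18 lower and Adamts15 higher, of 24, against 5.26% of all genes. With normexp there were 9 members, where 2605 of the 14881 genes were lower and 1378 higher at that threshold. Members lower in 4 of 4 pairs numbered 3 (Adamts1, Adamts7 and Adamts18), against 9.72% of all genes, and 1 was higher in 4 of 4 (Adamts15), against 4.98%. With the array median as the scale, 3 members were lower and 7 higher in every pair. The share of all genes in every pair was not counted on that scale. Its median difference over all genes was 0.08, with 227 genes lower and 763 higher at an unadjusted p under 0.05 by limma. The differences, AngII+CsA minus AngII, ran from -0.40 for Mmp21 to 0.47 for Adamts15, with 11 below 0, 13 above, and 24 of 24 within 0.5. Their median was 0.00, with 0.08, 0.10, -0.10 and -0.05 in the 4 pairs, against -0.02 for all genes. None of the 42 genes was above background in 1 group on at least 2 arrays while being below it throughout the other.

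Adamts1 is a versican- and aggrecan-cleaving protease that other work has placed under calcineurin and NFAT. Its level was 5.12, 5.00, 5.37 and 4.74 with AngII (replicates 1 to 4) and 4.60, 4.86, 4.97 and 4.35 with AngII+CsA. Every culture with the drug lay below its partner, but the 2 groups overlapped. The mean went from 5.06 ± 0.26 to 4.70 ± 0.28 (SD, n = 4 each), a difference of -0.36 (95% interval -0.62 to -0.10) or 1.28-fold lower, with an unadjusted p of 0.0150 and an adjusted p of 0.894 by limma. The probe lies on chromosome 16 from 85791871 to 85791930 in mm7. A second Adamts1 probe was above background on 3 arrays, both of replicate 1 and the AngII array of replicate 2. Its pair of replicate 1 differed by -0.12, and the other pairs include signals at background.

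Adamts18, whose substrates are less well known, was also lower in every pair. Its levels were -1.86, -2.004, -1.78 and -1.45 with AngII and -2.26, -2.41, -2.25 and -1.57 with AngII+CsA. The groups overlapped through replicate 4, which was the highest array of both. The difference was -0.35 (95% interval -0.61 to -0.08, unadjusted p = 0.0174, adjusted p = 0.894 by limma). Adamts7, which cleaves cartilage oligomeric matrix protein and is studied in neointima formation, had levels of 1.82, 2.08, 1.69 and 2.28 with AngII and 1.49, 1.80, 1.52 and 2.22 with AngII+CsA. That difference was -0.21 (95% interval -0.46 to 0.04, adjusted p = 0.894 by limma). A second Adamts7 probe, above background on 8 arrays, gave -0.02 and was lower in 3 of 4 pairs, so the direction in every pair rests on 1 probe.

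Adamts15, a proteoglycan-cleaving relative of Adamts1, went the other way. The AngII levels were 1.14, 1.12, 2.11 and 1.97 and the AngII+CsA levels 1.18, 2.04, 2.64 and 2.37. Replicates 1 and 2 were the lowest with AngII, and replicate 1 hardly differed between the groups. The mean went from 1.58 ± 0.53 to 2.06 ± 0.64 (SD, n = 4 each), a difference of 0.47 (95% interval 0.09 to 0.85), 1.39-fold higher, with an unadjusted p of 0.0219 and an adjusted p of 0.894 by limma.

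The aggrecanases Adamts4 and Adamts5 had no common direction. Adamts4 levels were 0.60, 0.36, 1.90 and 1.85 with AngII and 0.69, 0.51, 1.80 and 1.23 with AngII+CsA, a difference of -0.12 (95% interval -0.49 to 0.24). Adamts5 levels were 1.89, 1.20, 1.49 and 0.95 with AngII and 2.25, 1.01, 1.81 and 0.88 with AngII+CsA, a difference of 0.10 (95% interval -0.22 to 0.42). For both genes the spread between cultures of a group was wider than the difference between the groups. Of the other ADAMTS genes, Adamts8 and Adamts12 differed by 0.28 and 0.24, each higher in 3 of 4 pairs, and Adamts2, which trims procollagen, and Adamts9 by 0.04 and 0.00. Further probes gave 0.17 and -0.11 for Adamts12, and 0.18, -0.05 and -0.25 for Adamts2.

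Mmp14, the membrane-type enzyme that activates the precursor of Mmp2, was among the steadiest members by its brighter probe. Its levels were 7.74, 7.43, 7.58 and 7.504 with AngII and 7.83, 7.41, 7.54 and 7.51 with AngII+CsA. Paired cultures differed by at most 0.09 in size. The mean difference was 0.01 with a 95% interval of -0.23 to 0.24, so changes beyond that interval are not supported by this probe. A second Mmp14 probe, above background on 8 arrays, was less steady, at 2.03 to 3.43 with AngII. It gave 0.30, with 1.31 in pair 1 and pairs in both directions. Mmp16, another membrane-type enzyme, differed by 0.32 (95% interval -0.03 to 0.67, adjusted p = 0.894 by limma), higher in 3 of 4 pairs. Its probe was above background on 5 of 8 arrays, and with normexp background correction the difference was -0.065. Mmp21 had the lowest difference, -0.40 (95% interval -0.98 to 0.18), yet its pairs were -1.23, 0.11, -0.59 and 0.12. It was above background only in replicates 2 and 4, and both negative pairs were those at background. Mmp17, Mmp23, Mmp24 and Mmp28 differed by -0.01, 0.01, -0.15 and -0.23. A second Mmp28 probe, above background on 6 arrays, gave 0.09.

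The inhibitors were measured on every array. Timp1 levels were 10.60, 10.09, 10.80 and 10.15 with AngII and 10.61, 10.27, 10.74 and 10.22 with AngII+CsA, a difference of 0.05 (95% interval -0.19 to 0.29). The groups overlapped, and replicates 1 and 3 were the high ones in both. Further Timp1 probes gave 0.30 and 0.23, the former higher in 4 of 4 pairs. Timp2, which inhibits Mmp2 and also helps Mmp14 to activate it, had 10.42, 9.64, 9.85 and 9.51 with AngII and 10.17, 9.502, 9.75 and 9.51 with AngII+CsA, a difference of -0.12 (95% interval -0.36 to 0.13). Replicate 1 was highest in both groups. Timp3, the matrix-bound inhibitor that also blocks several ADAMTS enzymes, had 7.17, 7.54, 8.24 and 7.99 with AngII and 7.36, 7.84, 8.64 and 7.93 with AngII+CsA, a difference of 0.21 (95% interval -0.07 to 0.49). Timp4 levels were -2.29, -1.63, -2.24 and -2.04 with AngII and -2.44, -1.67, -2.17 and -1.97 with AngII+CsA, a difference of -0.01 (95% interval -0.26 to 0.23).

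**Figure D2:**
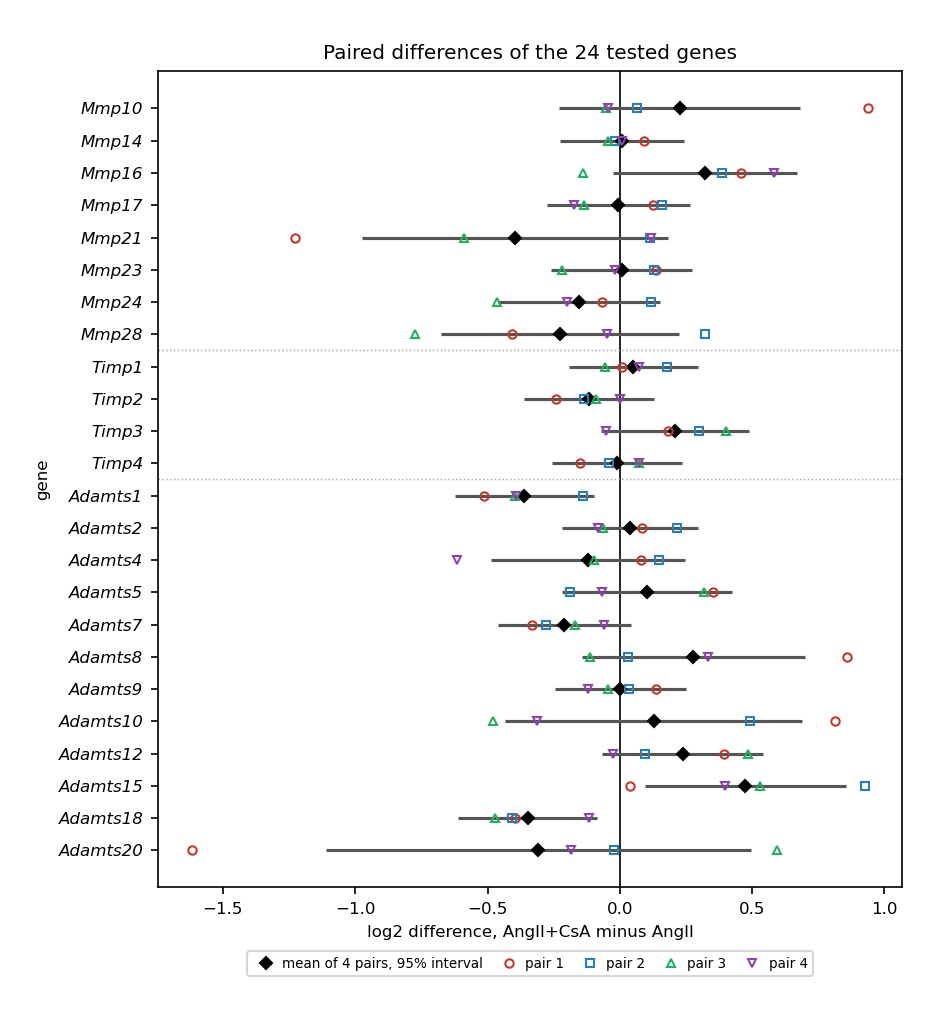
For each of the 24 tested genes, coloured symbols give the log2 difference (AngII+CsA minus AngII) in each of the 4 pairs, and the diamond and line give the fitted mean and its 95% interval. The intervals of Adamts1 and Adamts18 lie below 0 and that of Adamts15 above it before adjustment; for the other 21 the interval crosses 0.

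More members passed the test for replicate number than the test for cyclosporin A. By limma's moderated F-test of the number, adjusted over all genes, 22 of 24 members passed, against 68.5% of all genes, so a high share here is common to the array. The 22 include Mmp16 and Mmp21, which were tested though below background in both cultures of some numbers. Mmp14 and Mmp28 did not pass, with adjusted p of 0.171 and 0.242. Each number covers 1 culture of each group on a shared slide, so differences between cultures and between slides cannot be told apart. The range between the 4 replicate means had a median of 1.01 over the members and 0.90 over all genes, while the largest cyclosporin difference of a tested member was 0.47. A range over 4 means of few arrays and a difference between group means are unlike measures, so their sizes are not directly comparable.

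The widest range was that of Mmp16, at 3.17 in log2, or 8.98-fold. Its levels were -3.53, -2.38, -5.28 and -2.88 with AngII and -3.07, -1.99, -5.42 and -2.30 with AngII+CsA. Both arrays of replicate 3 were below background, so this fold includes background signal. Adamts20 had a range of 2.53, with 0.74, -1.32, -2.90 and -2.15 in the AngII cultures and -0.88, -1.35, -2.31 and -2.34 with the drug. Replicate 1 was the highest in both groups, and its own pair differed by -1.62. Mmp21, Mmp24 and Mmp10 had ranges of 2.09, 1.98 and 1.98, and replicate 4 was the highest and replicate 1 the lowest in each of them. Mmp21 was above background only in replicates 2 and 4, where it was high, so it was tested through those numbers and its range includes background signal. The AngII array of replicate 1 for Mmp10 and that of replicate 3 for Adamts20 were also below background. Adamts10, with a range of 1.52, was also lowest in replicate 1. The order of the replicates was not common to the members: replicates 1 to 4 were the highest in 6, 3, 8 and 7 of the 24 and the lowest in 9, 5, 5 and 5. Adamts4, Adamts15, Adamts2, Mmp23 and Timp3, with ranges of 1.17 to 1.42, were highest in replicate 3. Adamts5, with a range of 1.16, was highest in replicate 1, as were Timp2, Adamts12 and Adamts9.

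**Figure D3:**
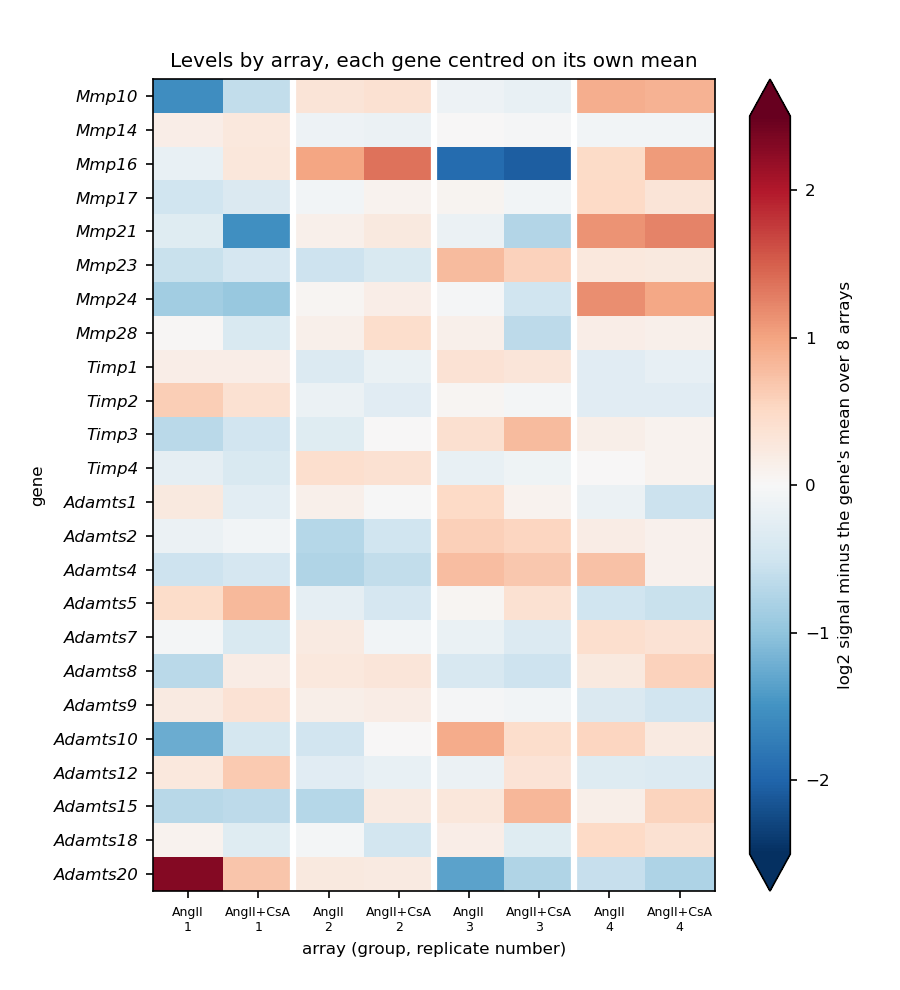
Rows are the 24 tested genes and columns the 8 arrays ordered by replicate number; colour is the log2 level minus that gene's mean over the 8 arrays, red above and blue below. Neighbouring columns of a number have similar colours in most rows, with the strongest contrasts in Mmp16 (blue in replicate 3) and Adamts20 (red in replicate 1).

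Mmp3, which encodes stromelysin-1, a broad matrix protease that also activates other MMPs, stood apart in 1 pair of cultures. Its levels were 2.30, -5.96, -5.32 and -5.71 with AngII and 2.97, -4.70, -4.09 and -4.21 with AngII+CsA. Both cultures numbered 1 were far above background and the other 6 were below it. Set against the lowest signals that count as above background on those 6 arrays, the mean of replicate 1 (2.64) was at least 68.4-fold higher. With no filter on dim probes, the replicate number passed for Mmp3 (adjusted p = 0.00283 by limma's F-test), as it did for 28 of the 42 members and 53.7% of all 28785 genes. This p is no further support for the pattern, because the same values singled out Mmp3 and 6 of them were below background. In the fit with no filter the cyclosporin difference of Mmp3 was 1.16 (adjusted p = 0.448 by limma). However, 3 of its 4 pairs compare signals below background, and the pair above it differed by 0.67. The probe lies on chromosome 9 from 7453874 to 7453933 in mm7.

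Its neighbour Mmp10, stromelysin-2, did not share this pattern. It was lowest in replicate 1, with -3.86 in AngII and -2.92 in AngII+CsA, against -2.49 to -1.39 on the other 6 arrays. Mmp13, the third of the promoters shown above, stayed below background on 8 of 8 arrays, at -6.03 to -4.69. Mmp11, stromelysin-3, was like Mmp3 above background only on both arrays of replicate 1, at -2.72 and -2.79, which is at least 1.63-fold above the bound for the others. On the whole array, 414 probes (1.01%) had that pattern for replicate 1, and 2 of 73 did among the members (2.74%). The same pattern for replicate 2 was seen in 390 probes (0.947%), 1 of them a member, Adamts16. For replicates 3 and 4 it was seen in 6 (0.0146%) and 61 probes (0.148%), with 0 members.

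Sums of cell markers also differed by replicate number. The log2 of the summed smooth muscle markers was 7.999, 9.49, 10.34 and 10.28 in replicates 1 to 4, and that of the fibroblast markers 6.94, 5.78, 5.68 and 5.35. Replicate 1 was thus the lowest for the former and the highest for the latter, and Ly6a of the fibroblast list was above background only on the 2 arrays of replicate 1. These sums weigh the brightest markers most, and the lists did not move as a whole. Pdgfra and Lum were highest in replicate 1 in both groups, but Pi16 was lowest there, at -0.66 with AngII and -0.92 with AngII+CsA. Myh11 of the smooth muscle list was lowest in replicate 4, at -0.30 and 0.19. The ranges of the linear sums, relative to the 75th percentile, overlapped between the groups. The smooth muscle sum was 290.2 to 1378 with AngII and 221 to 1216 with AngII+CsA, lower in 3 of 4 pairs, and the macrophage sum 6.92 to 11.9 and 6.67 to 10.9, also lower in 3 of 4. The fibroblast sum was lower with the drug in 4 of 4 pairs, at 134, 61.2, 52.3 and 42.1 with AngII and 111, 48.4, 50.3 and 39.2 with AngII+CsA. So was the endothelial sum, at 0.431, 0.465, 0.531 and 0.591 with AngII and 0.393, 0.399, 0.409 and 0.483 with AngII+CsA. That sum includes background signal, as Pecam1, Cdh5 and Tie1 were above background on 0 arrays and Kdr on 2. The lowest signal above background was itself lower with the drug in every pair. Vwf and Tek differed by -0.32 and -0.21, and Tek was higher with the drug in replicate 1. Of the smooth muscle markers Cnn1 differed by -1.71 between the groups and was lower in 4 of 4 pairs. The rest of that list went both ways. Lmod1 differed by -0.37, Myocd by -0.25, Tagln by -0.02, Acta2 by 0.01, Des by 0.16, Smtn by 0.28 and Myh11 by 0.34. The part of these cell types in the levels of Mmp3 and the other members was not tested. Fewer cells of a type and less RNA per cell cannot be told apart in these cultures.

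**Figure D4:**
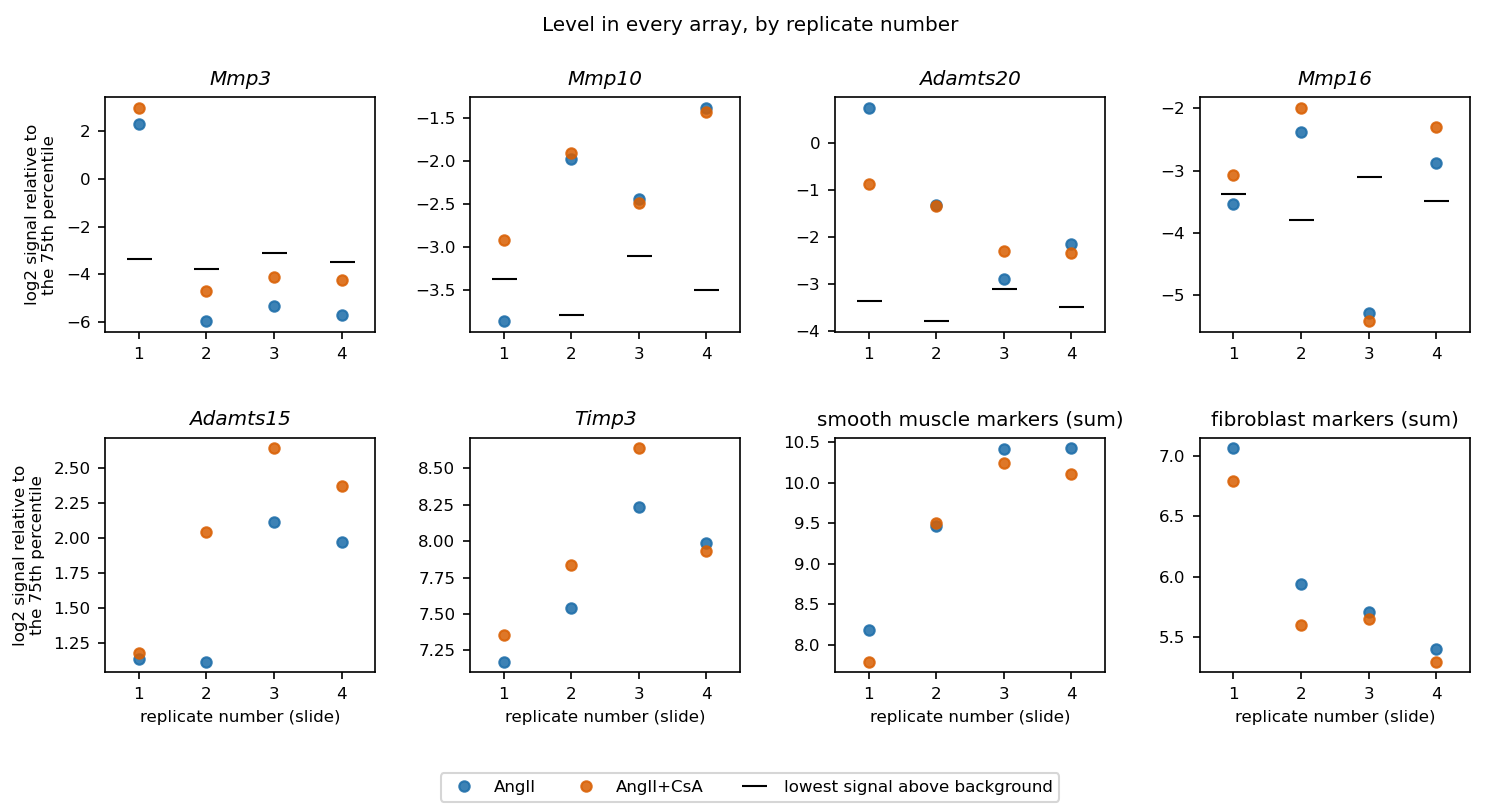
Points give the log2 level, relative to the 75th percentile of the array, of 6 members and of 2 marker sums on each array (blue, AngII; orange, AngII+CsA) against replicate number; black dashes give the lowest signal above background, averaged over the 2 arrays of a number, for genes near it. Mmp3 is above the dash in replicate 1 alone, at 2.30 and 2.97, while Mmp10 is lowest there and the smooth muscle sum is lowest and the fibroblast sum highest there.

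Genes that act with these proteases did not pass the test either. In lists of activators, receptors and inhibitors (16 of 19 tested), ADAM proteases and ADAMTS-like proteins (11 of 16), matrix substrates (17 of 20) and transcription factors known to act on these genes (16 of 21), 0 members passed by limma in either direction. Their median differences were -0.02, -0.00, 0.07 and 0.07. At an unadjusted p under 0.05 by limma there were 1, 1, 0 and 1 members, against 5.26% of all genes. The genes named here had the smallest p of their lists. Over all genes, 9.72% were lower and 4.98% higher in 4 of 4 pairs. Sdc4, a heparan sulfate proteoglycan of the cell surface, differed by -0.35 and was lower in 4 of 4 pairs, Plau, the urokinase that activates plasminogen, by -0.31, and Cav1, the caveolar coat protein, by -0.27. Adam19 differed by 0.32, higher in 4 of 4 pairs, Adam28 by -0.31 and Adamtsl1 by -0.21, both lower in 4 of 4. Among substrates the collagen gene Col3a1 and the elastin gene Eln differed by -0.21 and -0.20, each lower in 4 of 4 pairs, and the fibrillin gene Fbn1 by 0.18. Of the transcription factors, the early growth response gene Egr1 differed by 0.26, higher in 4 of 4 pairs, the AP-1 subunit Fosl1 by 0.47 and Runx2 by 0.23. The adjusted p of each gene named from these lists was at least 0.894 by limma.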

How the data were processed

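Per the labels' protocols, total RNA was amplified with T7 polymerase into Cy3-labelled RNA, giving 1-colour arrays. Arrays of design 014868 were read with Agilent Feature Extraction 9.5.3.1 (protocol GE1-v5_95_Feb07) with probe coordinates in mm7, per the file headers. The deposited intensity values are on a linear scale: a processed signal, a mean signal and a local background. A log2 table of the same arrays, deposited by the authors, served as an alternative; how it was normalized is not given in the sources used here.

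Each processed signal was taken to log2 and the array's 75th percentile was subtracted. Control and outlier spots were left out, spots of a probe were averaged, and no spot was saturated. Probes above background on at least 4 of 8 arrays were kept, with the brightest probe per gene, giving 14881 genes. Probes were named by accession in RefSeq (22951), by a current symbol (6659) or as in the files (11564). The test was two-sided, by lmFit and eBayes of limma 3.58.1 (R 4.3.3) with replicate number as a block. A check on simulated data used only changes larger than any difference of a tested member. It therefore does not show how often differences of the size seen here would be found. Arrays with the same number shared a slide and a scan, and after removing group means they correlated at 0.70 to 0.86, against -0.76 to 0.26 between different numbers; the pairing by number rests on this. No source says whether a number is a shared animal, and 4 arrays per group limit the precision. Where probes were at background, bounds set the mean of the brighter arrays against the mean, over the dimmer arrays, of the higher of the lowest signal above background and the probe's own signal.

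The members and lists were chosen with earlier results of these data known. Genes named with values were those with 4 of 4 pairs in 1 direction or an unadjusted p under 0.05, 12 fixed members, the 6 with the widest replicate range, and up to 3 per further list; others were named after their values were seen. Alternatives covered background correction, scaling, filters, probe choice, variance model, the authors' table, the block and leaving out each replicate.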

Additional observations from a re-analysis of the deposited data

Results flagged for a closer look

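Of 78 groups of 4 values looked at, 3 had 1 value far from the other 3 by Dixon's test, which chance alone gives in about 1 in 20 groups. The groups came from the tested members and from Mmp3 and Mmp11. Those 2 genes were added because they were above background only on both arrays of replicate 1. The same values thus chose Mmp3 and flagged it, and the chance rate does not apply to its flags. The Mmp3 level of replicate 1 was flagged in both groups. It was 2.30 among the AngII cultures, where the others lay at -5.96 to -5.32. Among the AngII+CsA cultures it was 2.97, where the others lay at -4.70 to -4.09. The third was the Mmp10 difference of pair 1, 0.94, where the other pairs gave 0.07, -0.05 and -0.05. The AngII array of that pair was below background for Mmp10 and its partner was above it.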

How the results depend on the processing

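The count of members that passed for cyclosporin A was 0 in every setting tried, with smallest adjusted p from 0.157 (normexp) to 0.9999 (no replicate block). The differences of Adamts1, Adamts18 and Adamts15 kept their direction in every setting, from -0.43 to -0.21, -0.42 to -0.18 and 0.32 to 0.62. Pair counts were less stable, and the share of all genes with every pair in 1 direction was counted only for the reported setting. Members lower in every pair, 3 as reported, were 6 with normexp and 13 of 42 with no filter on dim probes, and 3 to 5 when a replicate was left out. With no filter, 1214 of the 28785 genes were lower and 324 higher at an unadjusted p under 0.05 by limma. Members higher in every pair, 1 as reported, were 5 with normexp, 2 with quantile normalization, 7 with the array median, 2 with no filter, 3 when every kept probe was tested on its own, 2 with the authors' table, and 1 to 4 when a replicate was left out. The median difference of the members was 0.10 with the array median, where that of all genes was 0.08. The genes called lower over all genes, 4 as reported, were 2 with the array median, every probe on its own and the authors' table, and 0 with no filter, with no replicate block and without any 1 replicate. Genes with an unadjusted p under 0.05 split into 556 lower and 227 higher as reported, 2605 and 1378 (9 members) with normexp, 227 and 763 with the array median, and 37 and 6 (0 members) with no replicate block. Members that passed for replicate number, 22 as reported, were 13 to 19 when a replicate was left out, fewest without replicate 4. Reversed differences, none past the threshold, were Mmp10 (-0.11), Mmp16 (-0.065), Mmp17 (0.032) and Timp2 (0.037) with normexp, Adamts9 (-0.0077) and Timp4 (0.051) with quantile normalization, Mmp17 (0.092) and Timp4 (0.086) with the array median, and Adamts9 (-0.0043) and Timp4 (0.051) with the authors' table. Leaving out 1 replicate reversed 10 members, with ranges of -0.10 to 0.33 for Adamts10, -0.61 to 0.13 for Adamts20, -0.011 to 0.32 for Mmp10, -0.019 to 0.027 for Mmp14 and -0.040 to 0.034 for Timp4 (reversed without replicate 1), -0.043 to 0.042 for Adamts9 and -0.036 to 0.082 for Mmp23 (without 1 or 2), -0.021 to 0.078 for Adamts2 (without 2), -0.061 to 0.050 for Mmp17 (without 3 or 4) and -0.21 to 0.044 for Adamts4 (without 4). The cause of these changes was not tested. Signal over background limits what can be said of the 18 members that were not tested.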

Other observations

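Probes of one gene did not always read alike. Adamts8, a proteoglycan-cleaving ADAMTS gene, has a probe at chromosome 9 from 30862134 to 30862193 in mm7 that was above background on 8 of 8 arrays, and a probe from 30862193 to 30862252 on the same strand that was above background on 0 of 8. The 2 probes share 1 base. The level of Adamts8 given above rests on the first of them, and another Adamts8 probe, on the other strand, was above background on 0 of 8 arrays. In Timp1 the 3 probes were all above background on 8 of 8 arrays and gave differences of 0.05, 0.23 and 0.30 for AngII+CsA minus AngII.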
